A study of Homo sapiens with 9 samples.

Results

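The genes described here encode 9 secreted proteins of the extracellular matrix or linked to TGF-beta: VCAN, PXDN, MGP, LTBP1, FN1, TGFBI, FSTL1, EPDR1 and THBS1. They are 9 of 56823 genes to which reads were summed, and all 9 were among the 19658 genes with enough reads to be tested. They were picked because VCAN, PXDN, MGP and LTBP1 fell with both guides of the study while FN1 rose, so their differences from the control are given as a description, without p-values. The rise of FN1 was seen with 1 of the guides, gRNA2.

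Total RNA was sequenced after depletion of ribosomal RNA from H1975 cells, which come from a lung tumour of the non-small cell type with a mutated EGFR gene. All cells carried dCas9-KRAB, a nuclease-dead Cas9 joined to a repressor domain, under a doxycycline-inducible promoter (TRE), and all were given 4 ug/ml doxycycline, for 72 h, so the controls made the repressor too. They were grown in serum free of tetracycline, with G418 and puromycin. The control group had a non-targeting guide RNA, and the other groups had TRIDENT gRNA1 or TRIDENT gRNA2, guides against the long noncoding RNA TRIDENT, with 3 libraries in each group and 9 in all. The labels do not say whether the replicates were separate cultures, nor whether the cells were 1 clone, so p-values measure the spread between these libraries, which may be technical.

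Depth ran from 16918432 to 26466536 estimated reads per library. The RNA matched to the target, listed as TRIDDENT in RefSeq, had 36 to 62 reads per library. Levels are given as CPM, the reads of a gene over the TMM-scaled total of its library. TRIDDENT was at 2.62, 2.28 and 2.85 CPM in the controls, at 1.77, 2.09 and 1.87 in the libraries labelled gRNA1 and at 2.52, 2.29 and 2.52 in those labelled gRNA2. Its fold was 0.745 with gRNA1 (adjusted p = 0.128) and 0.945 with gRNA2 (adjusted p = 0.81), so neither passed the threshold of 0.05, and gRNA2 overlapped the controls. Epithelial markers summed to between 2790 and 3220 CPM in every library. Of 8 fibroblast markers, 4 had enough reads to be tested and COL3A1 was at 0 in all libraries. The 8 summed to between 14.5 and 17.3 CPM in the controls, between 14.1 and 18.6 with gRNA1 and between 16.0 and 19.0 with gRNA2. Most of this was COL1A1, which averaged 13.8, 13.4 and 14.8. The 3 endothelial markers summed to 2.93 to 3.37, 5.08 to 5.42 and 3.93 to 4.5 CPM; CDH5 averaged 0.858, 2.69 and 2.0, PECAM1 1.83, 2.07 and 1.89, and VWF 0.514, 0.464 and 0.383. The 3 leukocyte markers, of which 2 were tested, summed to 60.5 to 64.9, 58.1 to 61.8 and 61.7 to 70.9. Nearly all of this was CD68, which averaged 60.7, 57.1 and 64.2, while PTPRC averaged 1.83, 2.25 and 2.03. CD3E had at most 1 read in a library. The part of these markers in the results was not tested. In such bulk libraries, fewer cells that express a gene and less RNA per cell cannot be told apart.

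TGF-beta is secreted in a latent complex that is anchored to matrix fibres and has to be released before it can bind its receptors, which signal through SMAD proteins. LTBP1 tethers the latent complex to the matrix, fibronectin is 1 of the fibres it is laid down on, and thrombospondin 1 can release the active ligand. Many matrix genes are targets of the pathway, and carcinoma cells make part of the matrix around them.

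Promoters are shown for LTBP1, PXDN and THBS1, which were lower with at least 1 guide, and for FN1, which was higher with gRNA2, since the data set these genes apart by direction. RefSeq sequence upstream of the transcription start (GRCh38.p14) was matched for 8 of the 9 genes, all except MGP, in 11 windows of 250 bases. Sequence lying in an annotated exon of the gene was left out, so the FN1 sequence is the 146 bases farthest upstream, and VCAN and FSTL1, whose windows lie in exons, have no sequence to show. Those of TGFBI and EPDR1 are not printed. The windows are chr2:32946703-32946952 for LTBP1 (plus strand), chr2:1744516-1744765 for PXDN (minus strand), chr15:39580829-39581078 for THBS1 (plus strand) and chr2:215436173-215436318 for FN1 (minus strand). Capitals mark matches on either strand to the CRE TGACGTCA, the AP-1 element TGANTCA, the TEAD element GGAATG, the SMAD element CAGAC, the GC box GGGCGG and the TATA element TATAAA. No match to 1 motif overlapped a match to another, although GC boxes overlapped each other.
LTBP1: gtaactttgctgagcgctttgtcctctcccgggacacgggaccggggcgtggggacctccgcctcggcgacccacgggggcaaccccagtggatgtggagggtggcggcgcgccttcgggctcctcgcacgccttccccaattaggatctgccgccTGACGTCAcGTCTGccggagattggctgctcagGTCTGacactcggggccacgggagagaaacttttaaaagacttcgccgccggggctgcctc
FN1: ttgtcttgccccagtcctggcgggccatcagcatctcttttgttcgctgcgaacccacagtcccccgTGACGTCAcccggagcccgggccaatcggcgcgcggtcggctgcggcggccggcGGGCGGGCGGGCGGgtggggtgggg
PXDN: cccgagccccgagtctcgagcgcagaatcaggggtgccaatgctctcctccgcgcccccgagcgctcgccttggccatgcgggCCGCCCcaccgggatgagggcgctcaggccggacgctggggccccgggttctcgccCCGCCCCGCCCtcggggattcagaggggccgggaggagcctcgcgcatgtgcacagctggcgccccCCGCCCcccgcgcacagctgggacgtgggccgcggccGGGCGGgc
THBS1: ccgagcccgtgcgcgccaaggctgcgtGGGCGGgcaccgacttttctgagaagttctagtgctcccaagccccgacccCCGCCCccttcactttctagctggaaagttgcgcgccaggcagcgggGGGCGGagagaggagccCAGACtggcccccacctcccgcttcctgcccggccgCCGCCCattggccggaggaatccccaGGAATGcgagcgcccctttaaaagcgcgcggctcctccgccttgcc

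The CRE, the palindrome bound by CREB and ATF factors, was found upstream of 2 of the 8 matched genes. It was in 1 window each of LTBP1 (from -94 to -87 relative to the start) and FN1 (from -183 to -176), out of 11 windows. The CRE is present in 1.64% of 34788 RefSeq windows of this length. The windows with it were 66.4% (LTBP1) and 76.4% (FN1) G and C. The TEAD element, which is present in 11.9% of windows, was found for THBS1 (from -46 to -41). The SMAD element, present in 38.0% of windows, was matched at LTBP1 and at THBS1. GC boxes, present in 42.6% of windows, were matched at PXDN, FN1 and THBS1 among others, and the PXDN window was 78.4% G and C against a median of 58.0% over all windows. No AP-1 match (6.59% of windows) and no TATA match (10.8% of windows) was found in the member windows. These are matches of letters, not sites shown to be bound.

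Per unit of transcript length (TPM), TGFBI, a secreted integrin-binding protein that TGF-beta induces in many cells, was the most abundant of the 9 in the controls, at 473 ± 19.0 (SD, n = 3, as for all means here). MGP, a vitamin K-dependent inhibitor of calcification, had 28.1 ± 2.64 TPM. FSTL1, a secreted glycoprotein of the follistatin family, had 25.5 ± 4.83, FN1, the matrix fibronectin, 21.1 ± 0.914, and THBS1 15.0 ± 2.52. EPDR1, a secreted ependymin-related protein, had 4.16 ± 0.194 TPM, VCAN, the large hyaluronan-binding chondroitin sulfate proteoglycan versican, 3.78 ± 0.677, LTBP1 3.01 ± 0.808 and PXDN, the peroxidase that cross-links collagen IV in basement membranes, 1.33 ± 0.329. The ranges of MGP and FSTL1 overlapped, as did those of FSTL1 and FN1, of EPDR1 and VCAN and of VCAN and LTBP1, while TGFBI, THBS1 and PXDN stood clear of their neighbours in that order. With gRNA2, FN1 had 34.8 ± 1.65 TPM, above FSTL1 (22.9 ± 2.5) and MGP (21.8 ± 0.765) without overlap. With gRNA1 these 3 overlapped, at 22.9 ± 2.61 for FN1, 22.2 ± 2.77 for FSTL1 and 19.8 ± 2.37 for MGP.

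Of the 9 genes, 7 were lower past the threshold with gRNA1 and the other 2, FN1 and TGFBI, did not pass, where 3.58% of all genes were lower, 3.49% higher and 7.08% either. With gRNA2, 7 were lower and 1 was higher, where 4.75% of all genes were lower, 3.69% higher and 8.44% either. In CPM, the same 7 genes with gRNA1 and 8 with gRNA2 had groups that did not overlap. This held for 14.6% (lower) and 13.5% (higher) of all genes with gRNA1 and for 13.7% and 13.6% with gRNA2. In TPM, both guides overlapped the controls for LTBP1 and FSTL1, as did gRNA2 for VCAN and gRNA1 for EPDR1, while the others stayed apart. The 2 guides shared 6 of the genes that were lower, VCAN, PXDN, MGP, LTBP1, FSTL1 and EPDR1, and differed in FN1, TGFBI and THBS1. Median log2 differences of the 9 were -0.43 with gRNA1 and -0.34 with gRNA2, against 0.0 and 0.01 over all genes tested. Both comparisons use the same controls and the genes were picked on them, so nothing is read from these counts. Without gRNA2 replicate 2 the count with gRNA2 was 4, since FSTL1, LTBP1, EPDR1 and PXDN then missed the threshold. PXDN with gRNA2 also missed it without any 1 of the controls, gRNA1 replicate 2 or gRNA2 replicates 1 or 3, and with a replicate block. FSTL1 with gRNA2 missed it without control replicates 1 or 3, and LTBP1 without control replicate 2. With offsets for the average transcript length in each library the counts were 2 with gRNA1 and 3 with gRNA2. The folds with the offset were 0.558 and 0.815 for VCAN with gRNA1 and gRNA2, 0.774 and 0.682 for LTBP1, 0.773 and 0.69 for EPDR1, 0.858 with both guides for FSTL1, 0.741 for MGP with gRNA2 and 0.688 for THBS1 with gRNA1. Each of these folds lay on the same side of 1 as without the offset.

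**Figure D1:**
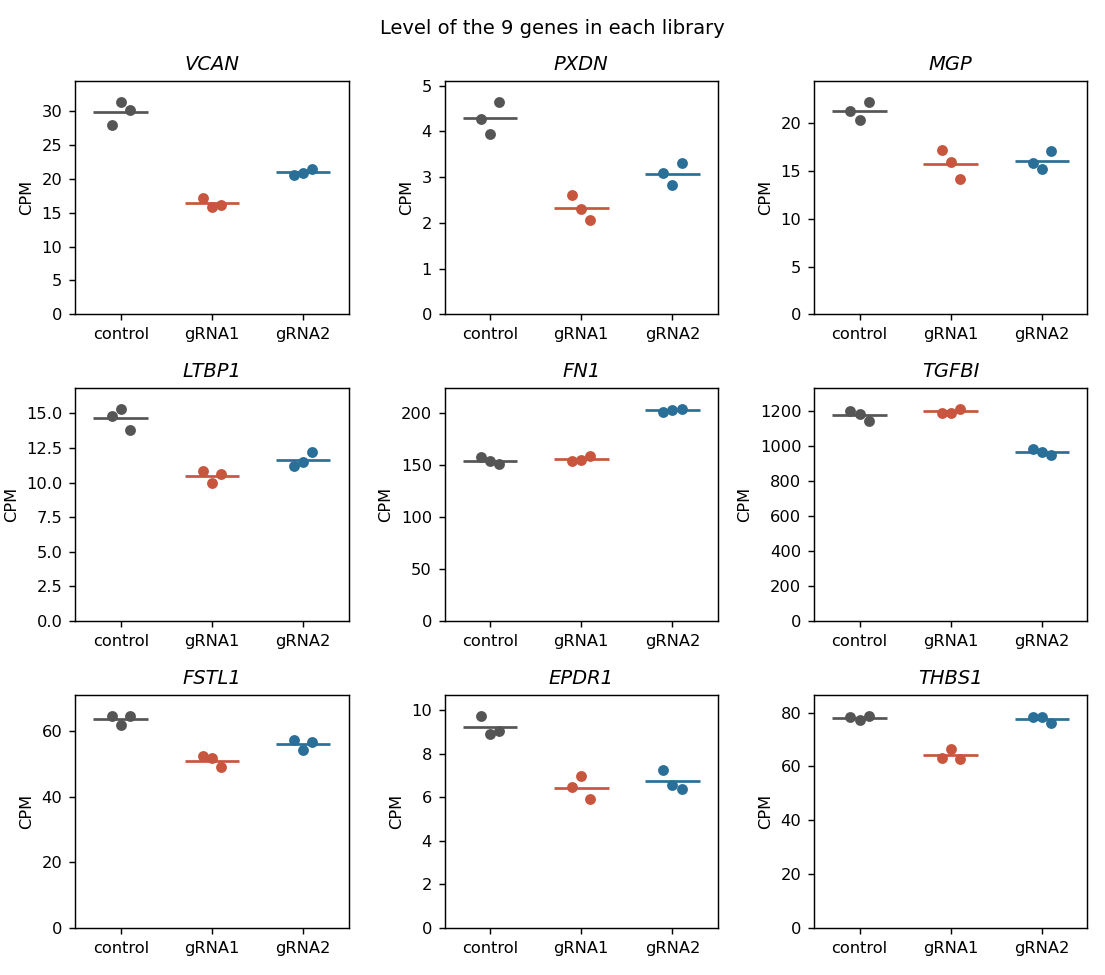
Level of each of the 9 genes (CPM, linear axis from 0) in every library, with 3 points per group and a line at the group mean. VCAN falls from between 28.0 and 31.3 in the controls to between 15.9 and 17.2 with gRNA1, while FN1 lies between 201 and 204 with gRNA2 and between 151 and 159 in the other libraries.

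Among the proteins that hold or release TGF-beta, LTBP1 was lower with both guides and THBS1 with gRNA1. LTBP1 (ENSG00000049323.15, chromosome 2, 32946972 to 33399509 of hg38, plus strand) was at 14.8, 15.3 and 13.8 CPM in the controls, at 10.8, 9.99 and 10.6 with gRNA1 and at 11.2, 11.5 and 12.2 with gRNA2. In CPM, all 6 guide libraries lay below all 3 controls. In TPM both guides overlapped the controls, with 2.46 to 3.93 in the controls, 1.68 to 3.25 with gRNA1 and 1.83 to 2.8 with gRNA2. The folds were 0.715 (log2 -0.48, SE 0.074) with gRNA1 and 0.79 (log2 -0.34, SE 0.073) with gRNA2. An antisense gene that overlaps the span of LTBP1 had 42.8 to 86.2 reads against 203 to 375 for LTBP1. The strand setting is not given, so reads cannot be told apart where transcripts of the 2 share sequence. Of the 31-base words of LTBP1, 2.59% occur in transcripts of any other gene, on either strand. THBS1 (ENSG00000137801.10, chromosome 15, 39581079 to 39599466, plus strand) was at 78.3, 77.1 and 78.8 CPM in the controls, at 63.2, 66.4 and 62.6 with gRNA1 and at 78.5, 78.4 and 76.2 with gRNA2. The libraries labelled gRNA1 lay below all others, and those labelled gRNA2 overlapped the controls. Its folds were 0.821 (log2 -0.28, SE 0.04) with gRNA1 and 0.996 (log2 -0.01, SE 0.039) with gRNA2.

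TGFBI and FSTL1, which is known to modulate signalling by TGF-beta family ligands, were measured in the same way. TGFBI (ENSG00000120708.16, chromosome 5, 136028895 to 136063818, plus strand) was at 1200, 1180 and 1140 CPM in the controls, at 1190, 1190 and 1210 with gRNA1 and at 982, 964 and 945 with gRNA2. The libraries labelled gRNA2 lay below every other library and those labelled gRNA1 overlapped the controls. The folds were 1.02 (log2 0.03, SE 0.029) with gRNA1 and 0.823 (log2 -0.28, SE 0.029) with gRNA2. FSTL1 (ENSG00000163430.11, chromosome 3, 120392293 to 120451253, minus strand) was at 64.7, 62.0 and 64.5 CPM in the controls, at 52.4, 51.7 and 49.1 with gRNA1 and at 57.2, 54.4 and 56.6 with gRNA2. Its groups did not overlap, with gRNA2 between gRNA1 and the controls. The folds were 0.802 (log2 -0.32, SE 0.044) and 0.88 (log2 -0.18, SE 0.044).

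The proteoglycan VCAN and the cross-linking enzyme PXDN had the largest falls with gRNA1 among the 9. VCAN (ENSG00000038427.15, chromosome 5, 83471465 to 83582303, plus strand) was at 28.0, 31.3 and 30.2 CPM in the controls, at 17.2, 15.9 and 16.2 with gRNA1 and at 20.5, 20.9 and 21.4 with gRNA2, so the 3 groups did not overlap. The log2 differences were -0.86 (SE 0.063) with gRNA1 and -0.52 (SE 0.061) with gRNA2. PXDN (ENSG00000130508.10, chromosome 2, 1631887 to 1744852, minus strand) was at 4.28, 3.95 and 4.64 CPM in the controls, at 2.61, 2.31 and 2.07 with gRNA1 and at 3.09, 2.82 and 3.30 with gRNA2, on 42 to 101 reads per library. Here too the 3 groups did not overlap. The log2 differences were -0.88 (SE 0.14) and -0.49 (SE 0.134), the largest standard errors of the 9 genes.

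MGP (ENSG00000111341.9, chromosome 12, 14881181 to 14885926, minus strand) was at 21.3, 20.3 and 22.2 CPM in the controls, at 17.2, 15.9 and 14.2 with gRNA1 and at 15.8, 15.2 and 17.1 with gRNA2. The guide libraries overlapped each other and lay below all 3 controls, with folds of 0.741 (log2 -0.43, SE 0.077) and 0.749 (log2 -0.42, SE 0.077). C12orf60, on the opposite strand, had 37.8 to 72.5 reads against 284 to 499 for MGP, and its reads cannot be told apart from those of MGP where the 2 overlap. EPDR1 (ENSG00000086289.11, chromosome 7, 37683843 to 37951941, plus strand) was at 9.74, 8.92 and 9.06 CPM in the controls, at 6.46, 6.96 and 5.91 with gRNA1 and at 7.26, 6.57 and 6.37 with gRNA2, on 106 to 219 reads. All 6 guide libraries lay below the controls and overlapped each other. Its folds were 0.7 (log2 -0.51, SE 0.095) with gRNA1 and 0.732 (log2 -0.45, SE 0.094) with gRNA2.

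FN1 (ENSG00000115414.18, chromosome 2, 215360440 to 215436172, minus strand) was at 158, 154 and 151 CPM in the controls, at 154, 155 and 159 with gRNA1 and at 201, 203 and 204 with gRNA2. The libraries labelled gRNA2 lay above every other library, and those labelled gRNA1 overlapped the controls. The folds were 1.01 (log2 0.01, SE 0.035) with gRNA1 and 1.31 (log2 0.39, SE 0.034) with gRNA2. No more than 6.9% of the 31-base words of any of the 9 genes also occur in transcripts of other genes.

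The comparison of gRNA2 with gRNA1 was not used to pick the genes, although it uses the same guide libraries, and it is the only one in which p-values are given for them. They are left out for VCAN, PXDN, MGP, LTBP1 and FN1, whose differences from the control in these same libraries were used to pick the genes. THBS1 was higher and TGFBI lower with gRNA2 than with gRNA1. THBS1 was 1.21-fold higher (95% interval 1.14 to 1.29, adjusted p = 0.00071), with 3 of 3 libraries above all 3 of the other guide. TGFBI was at 0.807-fold (0.773 to 0.843, adjusted p = 3.51e-05), below in 3 of 3 libraries. FSTL1 was at 1.1-fold (1.03 to 1.17, adjusted p = 0.0992), without overlap of the groups, and EPDR1 at 1.05-fold (0.903 to 1.21, adjusted p = 0.797). Both missed the threshold, which does not show that the guides act alike on them. As a description over all 9 genes, 3 were higher and 1 was lower past the threshold, where 3.12% of all genes were higher, 3.1% lower and 6.22% either, with a median log2 difference of 0.14 against 0.0 over all genes. The 2 guide groups did not overlap for 7 of the 9, 6 higher and 1 lower, against 11.9% and 12.0% of all genes. The 3 higher past the threshold were FN1, VCAN and THBS1, and the 1 lower was TGFBI. FN1 and VCAN were used to pick the genes, so nothing is read from these counts.

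Of the 5 genes given without a p, FN1 was at 1.3-fold with gRNA2 relative to gRNA1 (95% interval 1.23 to 1.37), PXDN at 1.31-fold (1.06 to 1.63) and VCAN at 1.27-fold (1.16 to 1.4), all without overlap of the groups. LTBP1 was at 1.1-fold (0.986 to 1.24), also without overlap, and MGP at 1.01-fold (0.897 to 1.14), with overlap. PXDN, LTBP1 and MGP did not pass the threshold. With the transcript length offset the difference of THBS1 between the guides was 1.37-fold (adjusted p = 0.106), so its call ended, while that of TGFBI stood at 0.83-fold (adjusted p = 0.00379). The offset put VCAN at 1.46-fold.

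**Figure D2:**
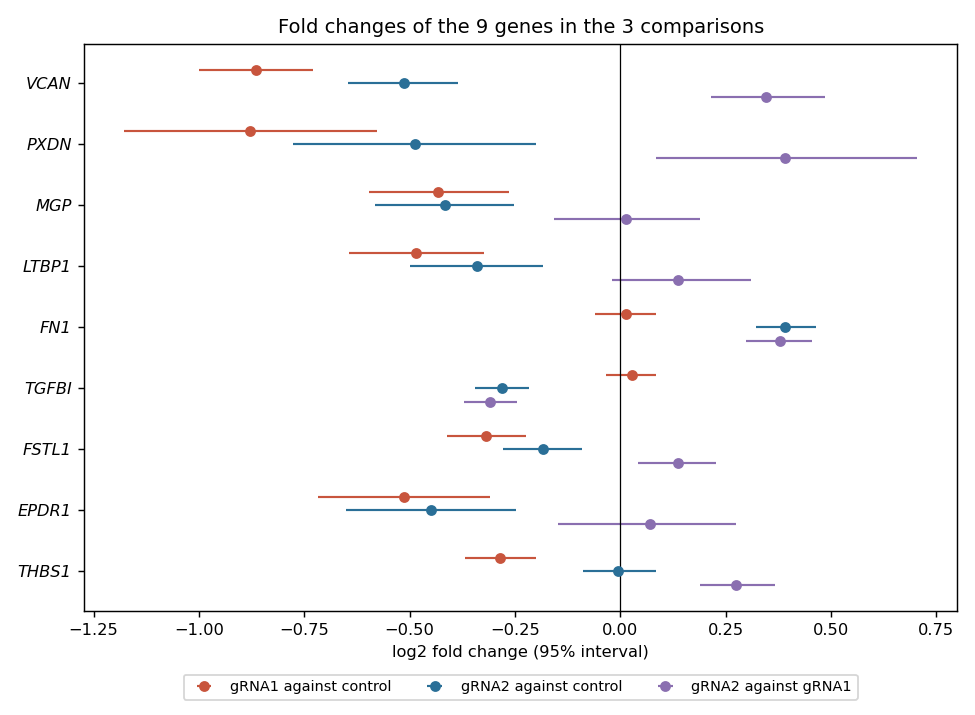
Log2 fold change of each gene (points) with its 95% interval (bars) for gRNA1 against control, gRNA2 against control and gRNA2 against gRNA1; the vertical line marks no difference. The intervals of VCAN, PXDN, MGP, LTBP1, FSTL1 and EPDR1 lie below 0 with both guides, and that of FN1 lies above 0 only where gRNA2 is compared.

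The transcript forms of FN1, VCAN and LTBP1 were described from the reads assigned to single transcripts, with no test, because the tables carry no error for that assignment. Shares of an exon or start are over the reads on transcripts that could be classed as having or lacking it. FN1 transcripts include or skip the alternatively spliced EDA and EDB exons, which mark the fibronectin that cells make for the matrix. The EDA exon (chromosome 2, 215380811 to 215381080, coding) was in 59.3%, 52.7% and 59.8% of assigned FN1 reads in the controls, in 51.6%, 46.5% and 49.3% with gRNA1 and in 54.8%, 45.1% and 45.9% with gRNA2. All 3 gRNA1 values lay below all 3 controls, while gRNA2 overlapped them. The EDB exon (215392931 to 215393203) was in 17.7% ± 5.38 of control reads, in 18.1% ± 4.24 with gRNA1 and in 14.9% ± 0.651 with gRNA2, and the groups overlapped. Reads assigned to EDA forms averaged 1820, 1550 and 2070 per library in the control, gRNA1 and gRNA2 groups, before scaling for depth. A retained-intron transcript of FN1 held 5.94% ± 0.059 of the control reads, and its share was 6.49% ± 0.881 with gRNA1 and 8.16% ± 0.218 with gRNA2. By TPM its mean shares were closer together, at 4.0%, 4.1% and 4.47%.

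VCAN has 2 large alternative exons that carry the chondroitin sulfate attachment regions. Exon 8 (chromosome 5, 83537007 to 83542268), the GAG-beta region, was in 79.2% ± 10.1 of assigned control reads, in 82.5% ± 1.7 with gRNA1 and in 86.8% ± 11.6 with gRNA2. Exon 7 (83519349 to 83522309), the GAG-alpha region, was in 42.3%, 25.7% and 48.1% in the controls, in 51.6%, 45.7% and 70.3% with gRNA1 and in 41.0%, 40.8% and 30.3% with gRNA2, so every group overlapped the controls. LTBP1 starts at an upstream site that gives the long form and at an internal site, and the long form held 71.8% ± 1.79 of control reads, with 65.4% ± 12.7 for gRNA1 and 70.8% ± 12.2 for gRNA2. In some of the genes 1 transcript held most of the reads over the 9 libraries. These were EPDR1-201 with 99.5%, THBS1-201 with 97.1%, PXDN-201 with 89.4%, TGFBI-201 with 84.4%, FSTL1-201 with 74.6% and LTBP1-203 with 67.6%. By TPM the group means for FSTL1-201 were 28.4%, 25.5% and 27.5% and those for PXDN-201 38.7%, 44.7% and 49.9% in the control, gRNA1 and gRNA2 groups, so these 2 held less than the rest of their gene by that measure. Those for LTBP1-203 were 51.4%, 46.9% and 56.9%.

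**Figure D3:**
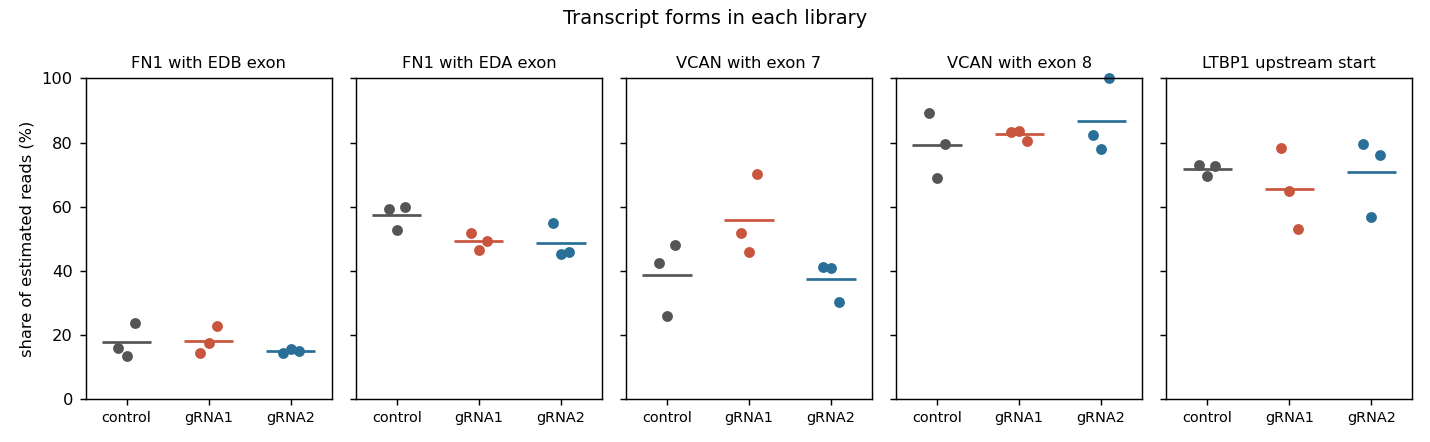
Share of a gene's assigned reads (percent, axis from 0 to 100) that fell on transcripts with the FN1 EDB or EDA exon, VCAN exon 7 or exon 8, or the upstream LTBP1 start, in every library (points) with the group mean (line). The EDA share lies between 46.5% and 51.6% with gRNA1 and between 52.7% and 59.8% in the controls, and the other shares overlap those of the controls. Exon 7 shares with gRNA1 lie above those with gRNA2.

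The genes whose level followed that of VCAN most closely over the 9 libraries, by the root mean square difference of log2 CPM set relative to the control mean, were PXDN (0.111), the AP-1 subunit FOSB (0.166), the lipid acyltransferase MBOAT7 (0.189), the receptor phosphatase PTPRG (0.19) and the metalloproteinase inhibitor TIMP4 (0.191). TIMP4 differed from the controls by log2 -0.61 with gRNA1 and -0.46 with gRNA2. Those nearest to FN1 were DLGAP1-AS2 (0.036), the unfolded protein sensor ERN1 (0.052), the stress-induced GADD45A (0.062), NABP1 (0.062) and TGFB2 (0.062). TGFB2, a ligand of the pathway, differed by log2 0.07 with gRNA1 and 0.37 with gRNA2, beside 0.01 and 0.39 for FN1, but 25.9% of its 31-base words also occur in other genes.

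The rest of the pathway was read in 6 lists that leave out the 9 genes, with folds tested over all genes. The shares of all genes past the threshold, against which each list's counts are read, were 3.49% higher and 3.58% lower with gRNA1, 3.69% and 4.75% with gRNA2, and 3.12% and 3.1% between the guides. Of 15 ligand, latency and activation genes tested, 2 were higher and 1 lower with gRNA1, 3 higher and 1 lower with gRNA2, and 1 higher and 1 lower with gRNA2 than with gRNA1, so at most 4 of the 15 in a comparison, and nothing particular to the list is read from these few genes. The ligand TGFB1 was at 14.9, 14.4 and 12.9 CPM in the controls and at 8.18, 10.1 and 10.4 with gRNA1, where it fell to 0.682-fold (adjusted p = 0.00552), and it was at 0.849-fold with gRNA2 (adjusted p = 0.175). TGFB2 rose 1.29-fold with gRNA2 (adjusted p = 6.62e-04) and was 1.23-fold higher with gRNA2 than with gRNA1 (adjusted p = 0.00263). ITGB6, whose product is part of an integrin that releases TGF-beta, rose 1.51-fold with gRNA1 (adjusted p = 5.52e-04) and 1.35-fold with gRNA2 (adjusted p = 0.00497), and 18.9% of its 31-base words are shared. INHBB, an activin subunit, rose 2.81-fold with gRNA1 (adjusted p = 0.00219) and 1.88-fold with gRNA2 (adjusted p = 0.0418). Its level was low, with 16, 18 and 16 reads in the controls (mean 0.775 CPM). The ligand GDF11 was at 0.861-fold with gRNA2 (adjusted p = 0.0362) and 0.842-fold between the guides (adjusted p = 0.0224). Median log2 differences of the list were 0.03, 0.03 and 0.05.

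Among 30 receptors, SMADs and feedback regulators, 1 was higher and 2 were lower with gRNA1, and 1 was higher with gRNA2 and 1 between the guides, where 7.08%, 8.44% and 6.22% of all genes passed in either direction. The type I receptor TGFBR1 fell to 0.828-fold with gRNA1 (adjusted p = 0.00707) and was at 0.883-fold with gRNA2 (adjusted p = 0.0543). BMPR1B rose 2.19-fold with gRNA1 (adjusted p = 0.0122), from a low level of 13, 21 and 30 reads in the controls (mean 0.977 CPM). ACVR2B fell to 0.895-fold with gRNA1 (adjusted p = 0.0465) and ACVR1 rose 1.17-fold with gRNA2 (adjusted p = 0.0144). The signal transducer SMAD3 was 1.12-fold higher with gRNA2 than with gRNA1 (adjusted p = 0.00989). The median log2 difference lay between -0.03 and 0.03 in the 3 comparisons.

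Of 30 TGF-beta target genes tested, 3 rose and 9 fell with gRNA1 (median log2 -0.07), 3 rose and 2 fell with gRNA2 (0.06), and 7 were higher and 2 lower with gRNA2 than with gRNA1 (0.15), where 7.08%, 8.44% and 6.22% of all genes passed in these comparisons. The transcript length offset made the gRNA1 split 4 higher and 4 lower, and leaving out control replicate 2 made it 3 and 3. The matricellular protein CCN1 was at 186, 180 and 183 CPM in the controls, at 150, 149 and 155 with gRNA1 and at 266, 264 and 256 with gRNA2, so the 3 groups did not overlap. It fell to 0.827-fold with gRNA1 (adjusted p = 3.57e-04) and rose 1.43-fold with gRNA2 (adjusted p = 1.46e-06). CCN2, its relative, rose 1.38-fold with gRNA1 (adjusted p = 0.00284) and 2.13-fold with gRNA2 (adjusted p = 1.95e-06), and was 1.54-fold higher with gRNA2 than with gRNA1 (adjusted p = 1.58e-04). IGFBP3, an insulin-like growth factor binding protein, rose 1.76-fold with gRNA1 (adjusted p = 0.00165) and was at 0.507-fold with gRNA2 relative to gRNA1 (adjusted p = 4.29e-04). IGFBP5 rose 2.85-fold with gRNA1 (adjusted p = 0.00259), from a low level of 8, 21 and 16 reads in the controls (mean 0.673 CPM). The tropomyosin gene TPM1 fell to 0.866-fold with gRNA1 (adjusted p = 0.00274) and was 1.2-fold higher between the guides (adjusted p = 4.21e-04), with 22.9% of its 31-base words shared. The transcription factor SNAI2 rose 1.59-fold with gRNA2 (adjusted p = 0.0157) and ID2 fell to 0.831-fold with gRNA1 (adjusted p = 0.0142) and to 0.85-fold with gRNA2 (adjusted p = 0.0243).

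Of 15 BMP ligands and antagonists, 1 rose and 1 fell with gRNA1, 1 rose with gRNA2, and between the guides 0 passed, by edgeR or DESeq2 (3 at an unadjusted p under 0.05), where 6.22% of all genes passed. BMP2 rose 1.27-fold with gRNA1 (adjusted p = 0.00984) and 1.24-fold with gRNA2 (adjusted p = 0.0156), and the BMP-binding CRIM1 fell to 0.867-fold with gRNA1 (adjusted p = 0.00352). Of 28 other secreted matrix glycoproteins and proteoglycans, 1 rose and 2 fell with gRNA1, 2 rose with gRNA2, and 2 were higher and 1 lower between the guides, where 7.08%, 8.44% and 6.22% of all genes passed. MFGE8, a secreted integrin ligand, rose 1.35-fold with gRNA1 (adjusted p = 9.83e-04) and 1.33-fold with gRNA2 (adjusted p = 0.00145). SPOCK1 fell to 0.852-fold (adjusted p = 0.018) and SPARC to 0.897-fold (adjusted p = 0.0225) with gRNA1, calls that ended in 5 and 7 of 16 alternatives. The fibulin EFEMP2 was 1.69-fold higher with gRNA2 than with gRNA1 (adjusted p = 0.00325). SMOC2 was at 0.501-fold there (adjusted p = 0.0352), on 12 to 52 reads per library, and its call ended in 6 of 15 alternatives. The median log2 difference of this list was between -0.01 and 0.05.

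Of 34 genes for matrix cross-linking, proteoglycan processing and glycosaminoglycan synthesis, 3 rose and 6 fell with gRNA1, 2 rose and 5 fell with gRNA2, and 1 was higher and 3 were lower between the guides, where 7.08%, 8.44% and 6.22% of all genes passed in either direction. LOXL2, a lysyl oxidase that cross-links collagen, was at 261, 245 and 237 CPM in the controls, at 207, 210 and 223 with gRNA1 and at 180, 169 and 168 with gRNA2, with no overlap. It fell to 0.86-fold with gRNA1 (adjusted p = 0.00877) and to 0.695-fold with gRNA2 (adjusted p = 1.15e-05). HAPLN3, a link protein that joins proteoglycans such as versican to hyaluronan, rose 1.74-fold with gRNA1 (adjusted p = 0.00256) and 1.7-fold with gRNA2 (adjusted p = 0.00319), whereas the hyaluronan receptor CD44 fell to 0.875-fold with gRNA1 (adjusted p = 0.00274) and 0.901-fold with gRNA2 (adjusted p = 0.0111). CEMIP, which takes part in hyaluronan breakdown, rose 2.07-fold with gRNA1 (adjusted p = 0.00284) and was at 0.522-fold with gRNA2 relative to gRNA1 (adjusted p = 0.0054). Its level was low, with 38, 32 and 45 reads in the controls (mean 1.8 CPM). The prolyl hydroxylase P4HA1 fell to 0.835-fold (adjusted p = 0.00479) and the xylose kinase FAM20B to 0.859-fold (adjusted p = 0.00456) with gRNA2. HAS2, POSTN, SPARC and TGM2 are each in 2 of the 6 lists.

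**Figure D4:**
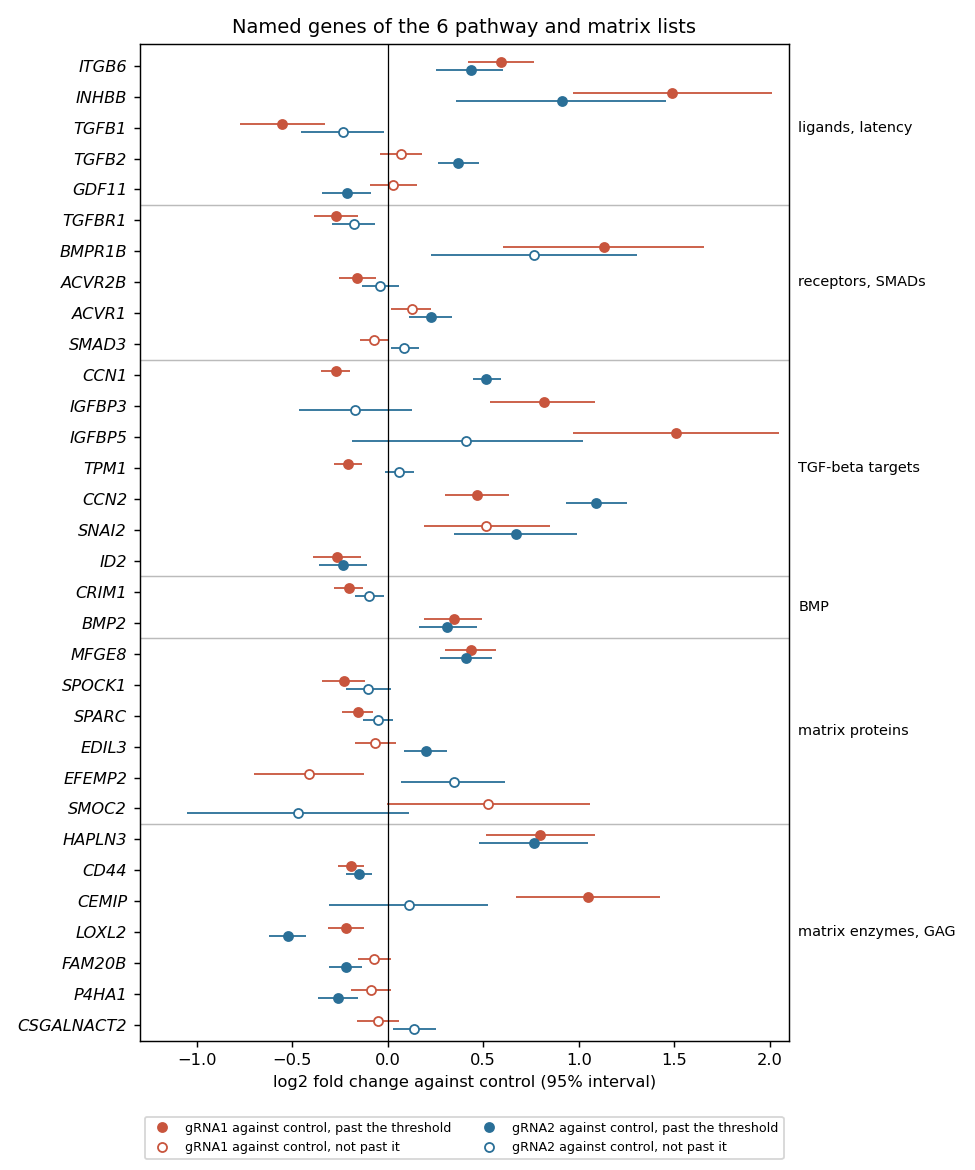
Log2 fold change against control (points) with its 95% interval (bars) of the named genes of the 6 lists, with gRNA1 in red and gRNA2 in blue; filled points passed the adjusted p threshold and open points did not. CCN1 lies on opposite sides of 0 with the 2 guides, at 0.827-fold and 1.43-fold, and LOXL2 lies below 0 with both.

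Of the 49 calls of the list genes named by the rule, 16 stood under every alternative tried, among them those given above for CCN1, CCN2 with gRNA2, IGFBP3, IGFBP5, MFGE8 and P4HA1, while 30 ended with the transcript length offset and 19 without at least 1 library. The offset ended both calls of ITGB6 (adjusted p = 0.0737 and 0.201), of TGFB2 (adjusted p = 0.0524 and 0.165), of HAPLN3 (adjusted p = 0.121 and 0.126) and of CEMIP (adjusted p = 0.259 and 0.141). It also ended the calls given above for TGFB1, TGFBR1, CRIM1, CD44 with gRNA1, EFEMP2 and, with gRNA1, TPM1 (adjusted p between 0.128 and 0.35).

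Other calls changed when 1 library was left out. BMPR1B missed the threshold without control replicates 1 or 2 (adjusted p = 0.0501 and 0.0631), and LOXL2 with gRNA1 without gRNA1 replicate 2 (adjusted p = 0.0531). INHBB with gRNA2 missed it without each of the controls, gRNA1 replicate 1 or gRNA2 replicates 1 or 3, with a replicate block or with the offset (adjusted p from 0.0578 to 0.122). ACVR2B did so in 14 of 16 alternatives, all except RLE scaling and leaving out gRNA2 replicate 1 (adjusted p from 0.0547 to 0.174). GDF11 with gRNA2 did so in 11 of 16, among them without each of the controls, each gRNA2 library or gRNA1 replicate 1 (adjusted p from 0.052 to 0.942). The difference of GDF11 between the guides missed it with the offset and without gRNA1 replicates 1 or 3 or gRNA2 replicates 1 or 2 (adjusted p from 0.0537 to 0.771).

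The calls of ACVR1, SMAD3, SNAI2 and BMP2, and that of ID2 with gRNA2, ended with the offset too. ACVR1 missed the threshold without control replicate 2 or gRNA2 replicate 2 (adjusted p from 0.0761 to 0.303), and SMAD3 without gRNA1 replicate 1 (adjusted p from 0.0525 to 0.364). SNAI2 did so without control replicates 2 or 3 (adjusted p from 0.0654 to 0.0889), and ID2 with gRNA2 without control replicates 1 or 2 or gRNA2 replicates 1 or 2 (adjusted p from 0.0564 to 0.136). BMP2 did so with gRNA1 without control replicate 2 (adjusted p from 0.0533 to 0.0904) and with gRNA2 without control replicates 1 or 2 or gRNA2 replicate 2 (adjusted p from 0.054 to 0.161). Among the calls not named by the rule, CD44 with gRNA2 missed it with the offset and without control replicate 2 or gRNA2 replicate 2 (adjusted p from 0.0774 to 0.379). ID2 with gRNA1 kept its call with the offset and missed it without control replicate 2 or gRNA1 replicates 1 or 2 (adjusted p from 0.0515 to 0.094). The target list itself had 6 to 12 calls with gRNA1 when 1 library was left out.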

How the data were processed

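The deposited tables, 1 per library, list for 211939 transcripts an estimated count of reads and TPM made by the authors with Salmon 1.4.0 against hg38, per the submitters' processing notes and the file headers. The strand setting is not given in the sources used here. By identifier, 95.7% of transcripts matched GENCODE 29; the deposited expected counts were added up for each of 56823 genes, then rounded, and unmatched transcripts (1.26% to 1.33% of reads) were left out. The authors' TPM were summed to compare levels between genes and not tested.

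Groups follow the labels. In edgeR 4.0.16 (R 4.3.3), with genes kept by filterByExpr and TMM scaling, all 9 libraries were fitted together, and quasi-likelihood F tests (two-sided, Benjamini-Hochberg over 19658 genes, threshold 0.05) compared the groups; the biological coefficient of variation was 0.051. The code was tested on simulated data. CPM use TMM-scaled totals. No 2 replicates agreed within sampling noise (chi-square per gene 1.75 to 6.02). Members, lists and rules were chosen with earlier results of these data known. Named besides the members were up to 4 list genes per comparison with the lowest adjusted p, not all printed, and the 5 genes most like VCAN and FN1 whose average log2 CPM was 1 or more. Alternatives were DESeq2 1.42.0, RLE scaling, no low-count filter, a replicate block, fits of 2 groups, a transcript length offset, protein-coding genes alone, and leaving out each library. Transcript shares were also computed from TPM. Sums and figures used Python 3.11.15 (matplotlib 3.10.9, numpy 2.4.6, pandas 2.3.3).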

Additional observations from a re-analysis of the deposited data

Results flagged for a closer look

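CCN1, a matricellular target of TGF-beta, differed between the guides in opposite directions from the control: it was lower with gRNA1 (0.827-fold) and higher with gRNA2 (1.43-fold), each past the threshold of edgeR's quasi-likelihood test. The direct difference, gRNA2 against gRNA1, was log2 0.79 (adjusted p = 1.63e-08), with all 3 gRNA2 libraries above all 3 gRNA1 libraries. The call stood under all 16 alternatives.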

How the results depend on the processing

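The main limit is the transcript length offset, which uses the average transcript length estimated in each library. With it the members past the threshold were 2 with gRNA1, 3 with gRNA2 and 2 between the guides; the direction turned between the guides for LTBP1 (log2 -0.18) and EPDR1 (log2 -0.16), and for GDF11 with gRNA2 (log2 0.03). The lists then had, for gRNA1, gRNA2 and gRNA2 against gRNA1, 1, 0 and 0 receptors and regulators, 0 ligands and latency genes with gRNA2 and 1 between the guides, 2 and 4 targets with gRNA2 and between the guides, 0 and 0 BMP genes with gRNA1 and gRNA2, 1 and 1 other matrix genes with gRNA2 and between the guides, and 3, 3 and 2 cross-linking genes. The cause was not tested. Among the members, depth limits PXDN most, with 42 to 101 reads per library. The list genes INHBB, BMPR1B and IGFBP5 had a lower mean CPM than PXDN in each group.

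With DESeq2 the ligand list had 2 genes with gRNA2, the receptor list 2 with gRNA2 and the cross-linking list 2 between the guides; DESeq2 gave no adjusted p for PXDN with gRNA2 or between the guides. Without the low-count filter the receptor list had 3 with gRNA2 and 2 between the guides, and the BMP list 4 with gRNA1. With only the 2 groups compared in the fit, the other matrix list had 1 with gRNA2 and the cross-linking list 2 between the guides. With protein-coding genes alone the receptor list had 2 with gRNA2. The causes were not tested.

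Libraries of different groups correlated at -0.139 to 0.21 where they had the same replicate number and at -0.288 to 0.22 where they did not. With 3 libraries in each group, this cannot settle whether the replicates were paired. With a replicate block, the members past the threshold were 7, 7 and 4 for gRNA1, gRNA2 and gRNA2 against gRNA1, with PXDN missing it with gRNA2, and the ligand list had 2 and the receptor list 3 with gRNA2.

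Leaving out 1 library gave, with gRNA2, 4 to 8 members past the threshold, 2 to 4 ligand genes, 0 to 2 receptor genes, 3 to 5 targets, 0 to 1 BMP genes, 1 to 3 other matrix genes and 4 to 8 cross-linking genes. With gRNA1 it gave 1 to 4 receptor genes, 6 to 12 targets, 1 to 3 BMP genes, 1 to 4 other matrix genes and 4 to 10 cross-linking genes. Between the guides it gave 1 to 2 ligand genes, 0 to 1 receptor genes, 4 to 9 targets, 0 to 1 BMP genes, 1 to 3 other matrix genes and 2 to 4 cross-linking genes. The MGP difference between the guides ran from log2 -0.05 to 0.08 and that of TRIDDENT with gRNA2 from -0.17 to 0.00. The number of members called was 7 with gRNA1 and 4 between the guides in each of these fits.

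As shares of TPM in place of reads, the EDA exon averaged 53.3%, 44.4% and 40.9% in the control, gRNA1 and gRNA2 groups, VCAN exon 7 28.9%, 30.8% and 18.9%, VCAN exon 8 at 77.9% with gRNA1 and the long LTBP1 form at 62.8% in the controls. By group means, 2 of the 5 genes most like VCAN and 0 of the 5 most like FN1 were the same.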
